A study of Mus musculus with 8 samples.

Results

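The Sprr genes encode small proline-rich proteins of the cornified envelope, the protein shell that replaces the plasma membrane of the outermost keratinocytes. They were taken by name, as 10 listed symbols (Sprr1a, Sprr1b, Sprr2b, Sprr2d, Sprr2e, Sprr2f, Sprr2g, Sprr2h, Sprr3 and Sprr4), and all 10 were found among the 21690 genes of the expression table. No cut-off on a measured value was applied, but earlier results of these data were known when the genes were chosen. The table held 16 Sprr genes in all, and the other 6 (Sprr2a1, Sprr2a2, Sprr2a3, Sprr2i, Sprr2j-ps and Sprr2k) are described beside the 10.

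Sprr proteins consist of short proline-rich repeats between end domains rich in glutamine and lysine. Transglutaminases join these ends to each other and to larger envelope proteins such as loricrin, so that Sprr proteins act as cross-bridges. The genes lie side by side in the epidermal differentiation complex, a cluster that also holds the genes of loricrin, involucrin and the late cornified envelope (Lce) proteins. Sprr1 and Sprr2 genes are known for strong induction in keratinocytes under stress, wounding or inflammation, and Sprr3 is known from the epithelium of the mouth and oesophagus.

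RNA came from the epidermis of the back skin at postnatal day 5 in mice, with 4 control and 4 experimental libraries that the labels call biological replicates. Controls were Esrp1flox/flox and Esrp2-/- and carried no Cre. Experimental mice had the genotype K5rTA tetOCre Esrp1flox/flox; Esrp2-/-, in which a doxycycline-dependent activator under the keratin 5 promoter, active in basal keratinocytes, switches on Cre. Dams of both groups were fed doxycycline chow from embryonic day 17. Both groups therefore lacked Esrp2 by genotype, and they differed in the transgenes and in the Esrp1 deletion these drive. ESRP1 and ESRP2 are epithelial regulators of splicing.

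Expression was given as TPM, a share of all transcripts corrected for transcript length, with 1 TPM or less listed at 0. TPM holds no read depth, so the counting error of a value was unknown. In each library 10401 to 11640 genes lay above 1 TPM. Esrp1 itself was at 131 to 162 TPM in the controls and at 49.8 to 75.6 TPM in the experimental libraries, a log2 change of −1.13 with an SE of 0.17 (limma adjusted p = 0.0112), so part of its RNA remained. Some Esrp2 RNA was listed despite the genotype, at 0 to 3.31 TPM in the controls and 3.25 to 5.28 TPM in the experimental libraries. The epidermal label was borne out by the keratins: Krt10 of the suprabasal layers was at 16787 ± 4943 TPM in the controls and 25145 ± 4628 TPM in the experimental libraries, and Krt14 of the basal layer at 1884 ± 1505 and 1239 ± 316 TPM (SD, n = 4 each). All 5 endothelial markers were at 0, and 7 fibroblast markers summed to at most 29.6 TPM. Erythroid RNA was present and uneven. Its 6 markers summed to 181 to 9583 TPM in the controls and 222 to 4178 TPM in the experimental libraries. Transcripts encoded in mitochondria took 18.2% of the listed TPM in experimental library 2 and 17.5% in experimental library 4, while the remaining 6 libraries lay between 10.6% and 12.6%. In bulk RNA, fewer cells of a type and less RNA per cell cannot be told apart.

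In the experimental epidermis 5 genes of the family rose, each above 1 TPM in all 4 of its libraries: Sprr2d, Sprr1b, Sprr2h, Sprr2e and Sprr2b. Sprr2d rose from 5.11 ± 1.91 to 288 ± 13.8 TPM, Sprr1b from 26.2 ± 8.77 to 271 ± 116 TPM and Sprr2h from 50.6 ± 16.1 to 370.3 ± 31.6 TPM (SD, n = 4 each). The pair of most abundant members, Sprr1a and Sprr4, did not pass the test. Sprr2g and Sprr3 were at 0 in all 8 libraries. Of the 10 genes, 7 entered the test, 5 were higher and 0 lower, where 0.917% of the 10682 genes tested were called higher and 1.54% lower (limma, Benjamini-Hochberg adjusted p under 0.05, two-sided). Sprr2b and Sprr2e entered the test only through their experimental values. Among the 7 genes tested, the 4 experimental libraries all lay above the 4 controls for 5, where this held for 2.7% of all genes tested; it also held for Sprr2f, which was not tested.

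**Figure D1:**
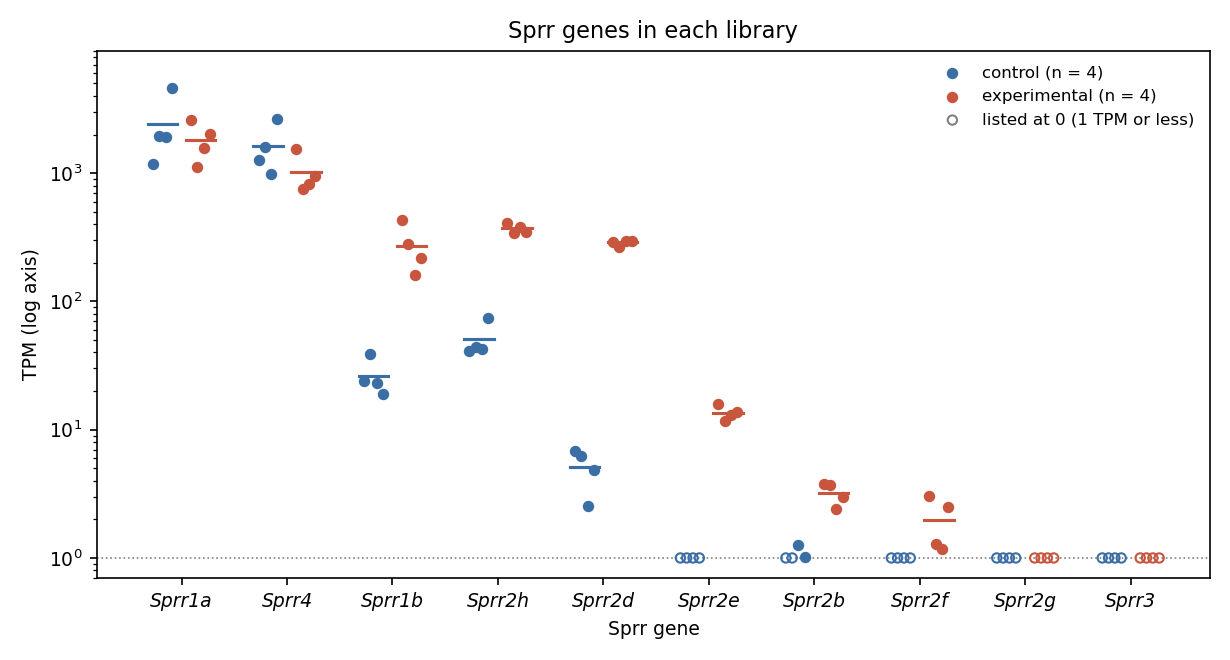
TPM of each of the 10 Sprr genes in each library on a log axis; points are libraries (4 control in blue, 4 experimental in red), bars are group means where no library is at 0, and open points are libraries listed at 0. Sprr2d, Sprr1b, Sprr2h, Sprr2e, Sprr2b and Sprr2f show separated groups, Sprr1a and Sprr4 overlap, and Sprr2g and Sprr3 are at 0 throughout.

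The Sprr2 members that rose lie in 1 cluster of gene copies, and the sequence before their start sites is shown first. RefSeq promoters (GRCm38.p6, 250 bases before to 50 after the start) were held for 9 of the 10 genes, all but Sprr2g. The stretch up to the gene start is printed 5′ to 3′ on the gene's own strand for 3 members that rose (Sprr2d, Sprr2e, Sprr2h), for Sprr2k, a relative at 0 in all 8 libraries, and for the 2 Sprr1 genes, of which Sprr1b rose and Sprr1a did not pass the test. Capitals mark 2 motifs known to bind factors active in keratinocytes: the AP-1 motif TGANTCA (Fos and Jun proteins) and the octamer ATTTGCAT (POU factors such as Pou2f3).
Sprr2d (chr3:92338935-92339139, plus strand): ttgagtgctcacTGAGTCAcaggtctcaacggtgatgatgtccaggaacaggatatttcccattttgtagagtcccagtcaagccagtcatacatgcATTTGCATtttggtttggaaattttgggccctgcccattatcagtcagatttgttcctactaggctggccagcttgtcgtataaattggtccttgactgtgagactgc
Sprr2e (chr3:92351938-92352142, plus strand): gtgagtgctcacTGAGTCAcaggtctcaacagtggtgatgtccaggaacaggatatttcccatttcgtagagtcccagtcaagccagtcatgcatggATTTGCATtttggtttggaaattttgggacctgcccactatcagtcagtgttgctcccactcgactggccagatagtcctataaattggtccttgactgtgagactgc
Sprr2h (chr3:92385480-92385684, plus strand): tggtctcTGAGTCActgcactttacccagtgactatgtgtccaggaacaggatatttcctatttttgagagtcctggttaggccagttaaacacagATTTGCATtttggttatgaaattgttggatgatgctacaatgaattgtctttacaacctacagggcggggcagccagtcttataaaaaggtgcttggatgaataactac
Sprr2k (chr3:92432377-92432581, plus strand): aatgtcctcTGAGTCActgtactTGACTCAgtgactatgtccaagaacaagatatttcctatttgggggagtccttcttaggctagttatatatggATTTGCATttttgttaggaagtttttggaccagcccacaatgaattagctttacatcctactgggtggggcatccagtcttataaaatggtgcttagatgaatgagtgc
Sprr1b (chr3:92438790-92438994, minus strand): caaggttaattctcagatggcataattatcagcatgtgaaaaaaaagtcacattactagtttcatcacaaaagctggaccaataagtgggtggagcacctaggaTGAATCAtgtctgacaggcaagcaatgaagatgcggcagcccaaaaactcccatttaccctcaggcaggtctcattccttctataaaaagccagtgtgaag
Sprr1a (chr3:92485896-92486100, minus strand): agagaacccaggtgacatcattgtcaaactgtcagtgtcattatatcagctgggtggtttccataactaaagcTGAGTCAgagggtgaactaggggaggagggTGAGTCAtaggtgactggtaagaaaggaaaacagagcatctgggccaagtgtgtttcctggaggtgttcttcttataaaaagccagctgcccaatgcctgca
The AP-1 motif began at −193 from the RefSeq start in Sprr2d and Sprr2e, at −198 in Sprr2h and at −197 in Sprr2f. The octamer began at −108, −108, −109 and −112 in the same order. Searched on both strands of the 300 bases, the AP-1 motif was in 7 of the 9 members' promoters and in 7.81% of 32851 RefSeq promoters, and the octamer in 5 of 9 and in 1.74%. Both stood together in the 5 Sprr2 members with a promoter (Sprr2b, Sprr2d, Sprr2e, Sprr2f and Sprr2h) and in 0.198% of all promoters. These 5 belong to 1 family of gene copies and are not independent cases. The printed windows of Sprr2d and Sprr2e were identical at 91.7% of aligned positions and those of Sprr2d and Sprr2h at 67.4%, beside 49.8% for Sprr2d and Sprr1b. The window held for Sprr2b was shorter than that of Sprr2e and ended further from the RefSeq start. Bases without a partner counted as unmatched, so the 42.5% identity of Sprr2b and Sprr2e cannot be set beside the values above. The same pair of motifs was in Sprr2k, whose window matched that of Sprr2h at 80.2% and which was at 0, and in Sprr2i, which was above 1 TPM in 1 library only. Sprr1b held an AP-1 match at −111 and Sprr1a held matches at −146 and −116, and neither held the octamer. The promoters of Sprr3 and Sprr4 held neither motif.

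Other motifs were searched in the same way. The Ets motif CAGGAA was in 7 of the 9 promoters and in 30.6% of all. TGACNNNGC, the core of the antioxidant response element bound by NRF2, was in 2 of 9 (Sprr2f and Sprr1a, in Sprr1a overlapping an AP-1 match) and in 12.4% of all. The KLF motif GGGTGNGG was in 1 of 9 and in 16.6%, and the STAT motif TTCNNNGAA in 0 of 9 and in 8.30%. A TATA box, TATAAA, was in 8 of 9, all but Sprr4, and in 13.6% of all promoters. A match describes these letters and is not a binding site.

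Sprr2d (ENSMUSG00000042212.3, chr3:92339140-92340873, plus strand, GRCm38) showed the largest fitted log2 change of the 7 genes tested. Its control libraries 1 to 4 held 6.80, 6.28, 2.54 and 4.82 TPM, and its experimental libraries 1 to 4 held 293, 268, 297 and 295 TPM. No experimental library came near the control range. The means differed 56.4-fold, a log2 change of 5.63 with an SE of 0.24 (95% interval 5.09 to 6.16, limma adjusted p = 3.37e-06). The spread among experimental libraries was small, with a coefficient of variation (SD as a percent of the mean) of 4.79%, against 37.3% among the low control values. Between the experimental libraries of high and low mitochondrial share Sprr2d hardly differed, and without libraries 2 and 4 its log2 change was 5.66.

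Sprr2h (ENSMUSG00000046259.2, chr3:92385685-92387324, plus strand) was the most abundant in controls of the 6 listed Sprr2 genes. Control libraries held 41.0, 44.4, 42.3 and 74.7 TPM, and experimental libraries 411, 343, 380.0 and 347 TPM. The highest control, library 4, remained far below the lowest experimental library. The mean was 7.32-fold higher, a log2 change of 2.89 with an SE of 0.21 (95% interval 2.42 to 3.36, limma adjusted p = 2.28e-04). Sprr2h exceeded Sprr2d 6.03 to 16.6 times within each control library but only 1.18 to 1.40 times within each experimental one, so the pair, far apart in controls, reached similar TPM.

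Sprr2e (ENSMUSG00000055030.1, chr3:92352143-92353449, plus strand), the next gene after Sprr2d, was at 0 in all 4 controls. Experimental libraries held 15.9, 11.6, 13.1 and 13.7 TPM. With controls set to the 1 TPM floor, the fitted log2 change was 2.86 with an SE of 0.15 (limma adjusted p = 1.80e-05). Its promoter and coding sequence are close to those of Sprr2d (coding identity 84.7%), yet its experimental level was 13.6 ± 1.76 TPM beside 288 TPM for Sprr2d. Near-identical sequence can move reads between copies: 21.1% of the 31-base words of Sprr2e and 10.3% of those of Sprr2d also occur in other annotated transcripts.

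Sprr2b and Sprr2f stayed low. Sprr2b (ENSMUSG00000050092.3, chr3:92316620-92318085, plus strand) was at 0, 0, 1.26 and 1.03 TPM in the controls and at 3.80, 3.68, 2.40 and 2.98 TPM in the experimental libraries. Its groups did not overlap, and the fitted log2 change was 1.01 with an SE of 0.16 (limma adjusted p = 0.0116). Of the 31-base words of Sprr2b, 31.9% also occur in other annotated transcripts, and 28.7% occur in Sprr2a1. Whether reads of other copies entered its low values was not tested. Sprr2f (ENSMUSG00000050635.1, chr3:92365187-92366442, plus strand) was at 0 in all controls and at 3.04, 1.28, 1.16 and 2.48 TPM in the experimental libraries. Its mean over 8 libraries, 0.996 TPM, fell just short of the 1 TPM that entry to the test required. An exact permutation test over the libraries gave p = 0.0286 for Sprr2f, the smallest 4 against 4 allow, and the fit without the filter gave a limma adjusted p of 0.219. Sprr2f was therefore not called. Sprr2g (ENSMUSG00000046203.11, chr3:92373915-92375229, annotated as a polymorphic pseudogene) lies between Sprr2f and Sprr2h and was at 0 in all 8 libraries.

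Sprr1b rose, and Sprr1a did not pass the test. Sprr1b (ENSMUSG00000048455.9, chr3:92436809-92438789, minus strand) held 23.8, 39.0, 23.2 and 19.0 TPM in the controls and 429, 278, 160.5 and 218 TPM in the experimental libraries. Its groups did not overlap, although the experimental libraries ranged more widely than those of Sprr2d or Sprr2h, with a coefficient of variation of 42.7%. The mean was 10.4-fold higher, a log2 change of 3.28 with an SE of 0.31 (95% interval 2.59 to 3.97, limma adjusted p = 7.34e-04). Sprr1a (ENSMUSG00000050359.7, chr3:92483952-92485895, minus strand) held 1185, 1965, 1924 and 4638 TPM in the controls and 2607, 1110.4, 1572 and 2016 TPM in the experimental libraries. Its groups overlapped throughout, and control library 4 alone lay above all others. The log2 change was −0.29 with an SE of 0.41 (limma adjusted p = 0.733), with a 95% interval of −1.20 to 0.61 that spans both directions. Without control library 4 it was 0.078, so the sign rested on that library. The ratio of Sprr1a to Sprr1b was 49.9 to 245 in the controls and 3.99 to 9.80 in the experimental libraries. Their coding sequences are identical at 78.9% of aligned positions but share no 31-base word, so the 2 values came from distinct sequence.

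Sprr4 (ENSMUSG00000045566.1, chr3:92500263-92500493, minus strand) is annotated as a single exon of 231 bases. This model holds 3 bases outside the coding sequence, against 371 or more in the longest transcript of each other member. TPM is corrected for transcript length, so the Sprr4 level depends on this short model. The size of that effect was not tested. Controls held 1267, 1594, 988 and 2651 TPM, and experimental libraries 1552, 748, 819 and 946 TPM. The groups overlapped, with experimental library 1 inside the control range and control library 4 again the highest. The log2 change was −0.64 with an SE of 0.33 (95% interval −1.38 to 0.10, limma adjusted p = 0.363), which did not pass the test. Sprr3 (ENSMUSG00000045539.3, chr3:92456502-92458720, minus strand) lies between Sprr1b and Sprr1a and was at 0 in every library. Of 6 markers of oral and oesophageal epithelium, Krt13 and Krt76 were at 0 as well. The 6 summed to 112 to 1502 TPM in the controls and 56.9 to 309 TPM in the experimental libraries, nearly all of it Crnn, which is also among the envelope partners.

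The summed level of the 10 genes did not separate the groups. It was 2524, 3648, 2982 and 7388 TPM in the controls and 5314, 2764, 3246 and 3841 TPM in the experimental libraries. What differed was its make-up. Sprr1a and Sprr4 together made up 97.2% to 98.7% of the sum in controls and 67.2% to 78.3% in the experimental libraries. The Sprr4 part, and with it the sum and every share, rests on its 231-base transcript model. Sprr1b, Sprr2d and Sprr2h together held 1.33% to 2.84% of it in the controls and 21.3% to 32.2% in the experimental libraries. Without Sprr1a and Sprr4 the other 8 genes summed to 82.5 ± 14.6 TPM in the controls and 949 ± 139 TPM in the experimental libraries (SD, n = 4 each).

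**Figure D2:**
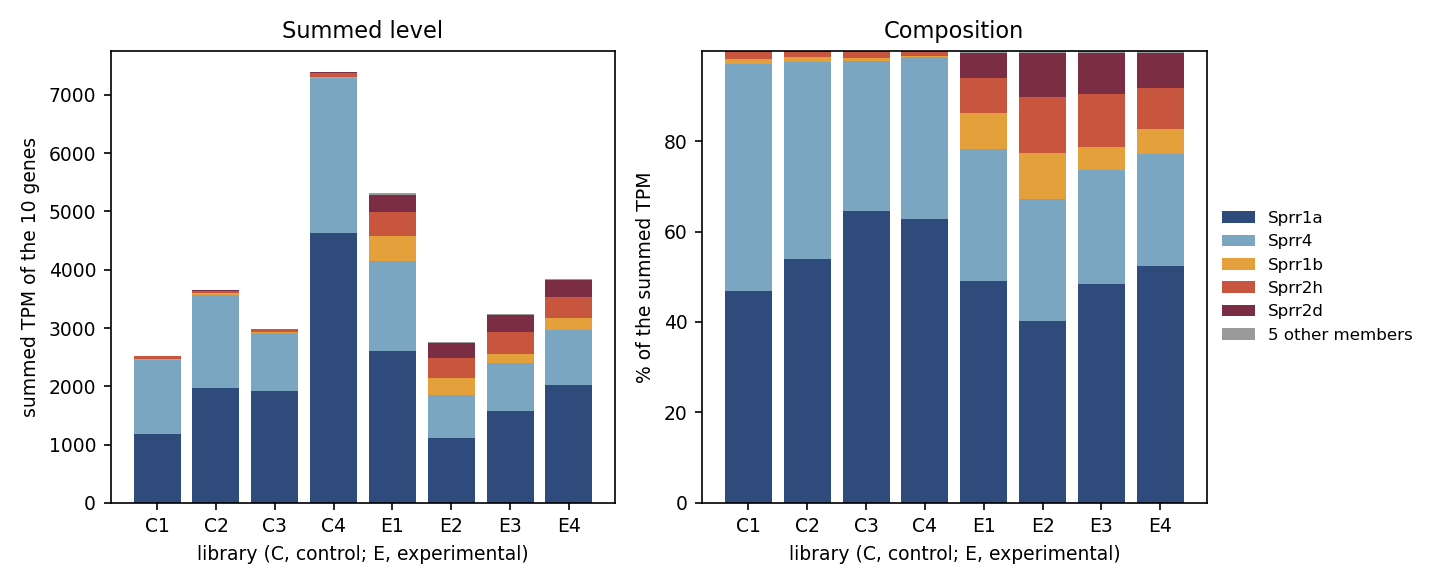
Summed TPM of the 10 Sprr genes per library (left) and the share of each gene in that sum in percent (right), as stacked bars for control libraries C1 to C4 and experimental libraries E1 to E4. Sprr1a and Sprr4 make up 97.2% to 98.7% of the sum in controls and 67.2% to 78.3% in the experimental libraries.

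Among the relatives outside the list, the Sprr2a copies could not be separated with confidence. Sprr2a1 and Sprr2a2 have identical coding sequence, and 96.9%, 97.8% and 73.6% of the 31-base words of Sprr2a1, Sprr2a2 and Sprr2a3 occur in other transcripts. Sprr2a2 held 150.2, 204, 68.4 and 27.9 TPM in the controls and 149, 321, 240.3 and 285 TPM in the experimental libraries, with a log2 change of 1.43 with an SE of 0.54 (limma adjusted p = 0.201). Its groups overlapped through experimental library 1. Sprr2a3 was at 4.72, 5.71, 4.70 and 1.28 TPM in the controls and at 8.14, 13.9, 11.5 and 13.5 TPM in the experimental libraries, without overlap. Its log2 change was 1.41 with an SE of 0.33 (limma adjusted p = 0.0574), short of the threshold, which it passed after median centring (limma adjusted p = 0.0259) or without control library 4 (limma adjusted p = 0.0205). With Sprr2a1, Sprr2a2 and Sprr2a3 summed, the log2 change was 1.44 with an SE of 0.53 (limma adjusted p = 0.199). Sprr2a1 lay at 0 to 1.45 TPM, Sprr2i was above 1 TPM only in experimental library 1 at 1.28 TPM, and Sprr2j-ps and Sprr2k were at 0 in all.

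Along chromosome 3 the genes that rose were mixed with genes that did not. From Sprr2b to Sprr2h on the plus strand, Sprr2b, Sprr2d, Sprr2e and Sprr2h rose, Sprr2f was not tested and Sprr2g was at 0. On the minus strand beyond, Sprr1b rose and its neighbours Sprr3, Sprr1a and Sprr4 did not pass or were at 0. The next gene after Sprr4, 2310046K23Rik, rose from 435 ± 235 to 2916 ± 365 TPM (log2 change 2.88, limma adjusted p = 0.00217). Ivl, which encodes involucrin, was at 407 ± 39.5 and 715 ± 156 TPM (limma adjusted p = 0.0650). On the other side of the cluster, Lor, which encodes loricrin, was at 22678 ± 5891 and 29083 ± 8864 TPM (limma adjusted p = 0.606). Prr9 was at 2434 ± 2111 and 538 ± 246 TPM (limma adjusted p = 0.13). All values are means with SD over 4 libraries, controls first. Lelp1 and Smcp were at 0 in all 8 libraries, and Gm9774 was at 0 in controls.

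**Figure D3:**
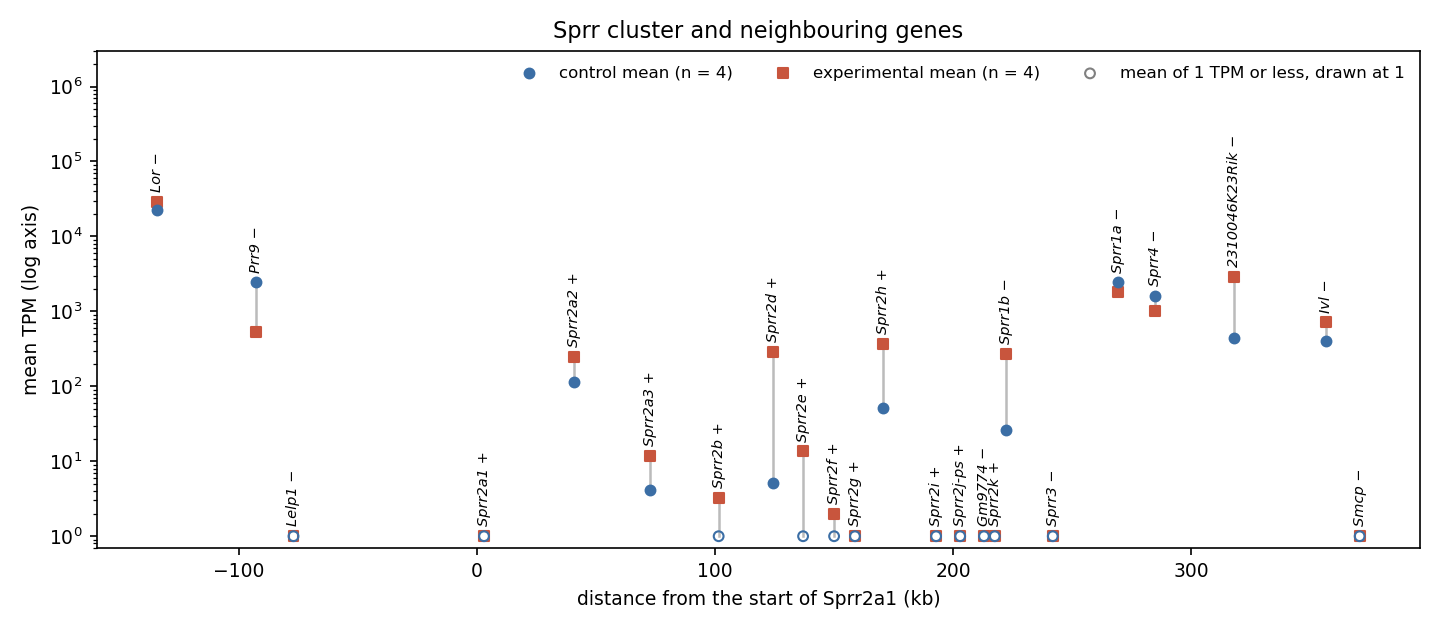
Mean TPM (log axis) of each gene from Lor to Smcp against its distance from the start of Sprr2a1 in kb; circles are control means, squares experimental means (n = 4 each), open symbols are means of 1 TPM or less drawn at 1, and the sign after each name is the strand. Sprr2d, Sprr2e, Sprr2h, Sprr1b and 2310046K23Rik stand apart between the groups while Sprr1a, Sprr4 and Lor do not.

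The number of genes called over the whole table sets the scale for the related lists: 0.917% were higher and 1.54% lower with all libraries. Over all genes, 5.39% were called in either direction without control library 4, 24.2% without control libraries 3 and 4, and 0.139% without experimental libraries 2 and 4, so counts in those fits move with the whole table. Of 20 envelope partners tested, among them loricrin, filaggrin, involucrin and the transglutaminases, 1 was higher and 0 lower, with a median log2 change of 0.07, beside −0.18 over all genes tested. Rptn (repetin), the gene called, rose from 12.7 ± 4.25 to 107 ± 30.8 TPM (limma adjusted p = 4.43e-04); the count was 2 without control library 4 and 4 without control libraries 3 and 4 (24.2% over all genes). The joining enzyme Tgm1 was at 190 ± 62.4 and 187 ± 34.5 TPM (limma adjusted p = 0.993). Of 19 Lce genes tested, 7 were higher and 0 lower, with a median log2 change of 0.89. The 4 largest changes were those of Lce3e (log2 change 2.71), Lce3c (2.45), Lce3d (2.26) and Lce3f (1.99). Lce3c rose from 53.8 ± 12.1 to 294 ± 38.9 TPM. Lce3a and Lce3b were at 0 throughout. The number of Lce genes called was 15 without control library 4 (5.39% over all genes), 18 without control libraries 3 and 4 (24.2% over all genes), and 2 without experimental libraries 2 and 4.

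Of 26 candidate regulators tested, 1 was higher and 1 lower, with a median log2 change of 0.05. Grhl3, a grainyhead factor of the epidermal barrier, rose from 33.6 ± 3.14 to 79.8 ± 19.8 TPM (limma adjusted p = 0.0156), and its relative Grhl1 fell from 178 ± 36.5 to 61.4 ± 13.8 TPM (limma adjusted p = 0.00769). The POU factor Pou2f3, whose motif family is printed above, was at 83.4 ± 21.4 and 85.8 ± 9.82 TPM (limma adjusted p = 0.883). None of the AP-1 genes tested (Fos, Fosl1, Fosl2, Jun, Junb, Jund) passed, and Junb was at 177 ± 49.8 and 168 ± 31.3 TPM. Fosl1, low in both groups, had the largest log2 change of these, 0.79 (limma adjusted p = 0.168). The Ets factors Elf3, Ehf and Elf5 had log2 changes of 0.73, 0.57 and −1.37. None of them passed (limma adjusted p = 0.0742, 0.268 and 0.141). Klf4 was at 398 ± 28.0 and 460 ± 60.0 TPM (limma adjusted p = 0.564). The count of 2 fell to 1 without control library 3 or experimental library 1, 3 or 4. In those fits 0.793% to 1.3% of all genes were called, beside 2.46% with all libraries. The regulator count was 0 without experimental libraries 2 and 4 (0.139% over all genes). It was 5 without control libraries 3 and 4, where 24.2% of all genes were called. Of 10 NRF2 targets tested, Srxn1 (10.7 ± 1.69 to 20.5 ± 2.45 TPM) and Gsta3 were higher, and Osgin1 was lower and at 0 in all experimental libraries; the median log2 change was 0.34. Gsta3 and Osgin1 entered the test only through the group where each is high. The count of 3 fell to 1 without control library 2 or 3 or experimental library 1, 3 or 4. In those fits, again, 0.793% to 1.3% of all genes were called. The NRF2 target count was 7 without control libraries 3 and 4, where 24.2% of all genes were called.

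Of 13 alarm signals tested, 2 rose, both of the interleukin 36 group: Il1f6 (38.0 ± 1.96 to 68.9 ± 12.0 TPM, limma adjusted p = 0.0331) and Il1f9 (78.2 ± 5.93 to 139 ± 27.8 TPM, limma adjusted p = 0.0442). Neither was called without control library 1, 2 or 3 or experimental library 2, 3 or 4. Over all genes, 2.43% were called without control library 1 and 0.793% to 1.25% without each other library named, beside 2.46% with all libraries. Without control library 4, 4 signals were called (5.39% over all genes), and after median centring 5 were called (3.6% over all genes). The median log2 change of the 13 was 0.52. The cytokines Il4, Il13, Il6, Il17a, Il22, Tslp and Tnf were at 0 in all 8 libraries, and 5 of 6 neutrophil markers were at 0 too. Among 8 stress genes tested, 3 were higher and 0 lower: the keratins Krt6b and Krt16 and the defensin Defb14. Krt16 rose from 68.1 ± 36.9 to 306 ± 88.7 TPM (limma adjusted p = 0.0156) and Defb14 from 60.7 ± 19.8 to 348 ± 66.8 TPM (limma adjusted p = 0.00111). Krt17, S100a8 and S100a9, with log2 changes below 0, did not pass. Slpi (log2 change 2.17, limma adjusted p = 0.0619) and Krt6a (0.62, limma adjusted p = 0.40) did not pass either. The median of the 8 was 1.39. None of the 8 was called without experimental libraries 2 and 4, where 0.139% of all genes were called.

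**Figure D4:**
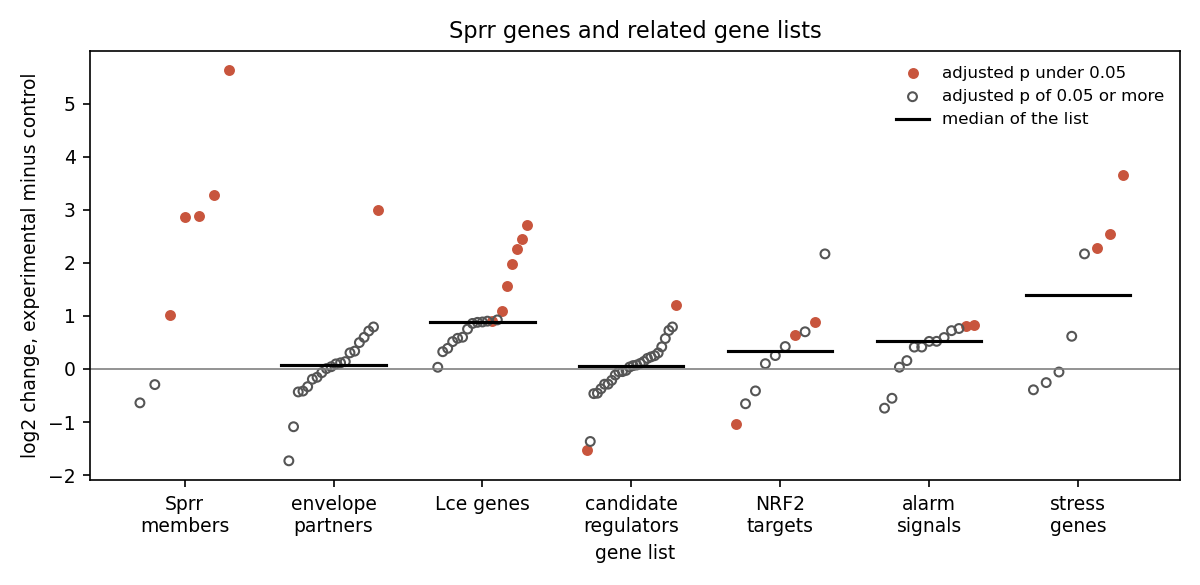
Log2 change, experimental minus control, of each tested Sprr gene and of the genes of 6 related lists; filled red points pass the test, open points do not, and black lines are list medians. The Sprr points reach 5.63 for Sprr2d, and the medians lie at 0.07 for envelope partners and 0.89 for Lce genes.

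Genes outside the Sprr family whose profile over the 8 libraries lay nearest to that of a member were found by the root mean square distance of centred log2(TPM + 1) values over 7436 genes. Outside the family, nearest to Sprr2h were 2310046K23Rik (0.24), Rptn (0.27) and Lce3c (0.38). Nearest to Sprr2e were Rptn (0.31), Lce3c (0.36) and Defb14 (0.37), and to Sprr1b Lce3e (0.57), Spink7 (0.59) and Rptn (0.59). For Sprr2d the distances were longer, the nearest outside the family being Spink7 (1.11), Krt6b (1.15) and Rptn (1.39). Sprr2d had the largest fitted change of the tested members, and a larger change by itself lengthens such distances. Among the tested members themselves, Sprr2h and Sprr2e lay 0.25 apart, Sprr1b lay 0.47 from Sprr2e, and Sprr2d lay 1.28 from Sprr1b, its nearest member. Sprr2b lay near Rhbg (0.19), Cdc14b (0.22) and Itpr2 (0.23). Sprr1a lay near Cpm (0.17), Phlda1 (0.18) and Pard6b (0.19), and Sprr4 near Pdlim7 (0.19), Timp2 (0.21) and Shb (0.22). Sprr2e was at 0 in all controls and Sprr2b in control libraries 1 and 2. Distances to these genes therefore depend on the 1 TPM floor and on the 1 TPM added before the log. With 0.1 TPM added instead, the log2 change was 3.62 for Sprr2e and 2.91 for Sprr2h. The 8 points of each profile share their libraries, so these distances are descriptions.

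Control libraries differed among themselves in cell type markers. The mean log2(TPM + 1) of 6 basal markers was 8.43, 8.10, 7.27 and 5.58 in controls 1 to 4, and their summed level was 912 to 7990 TPM in the controls and 1728 to 2964 TPM in the experimental libraries. The mean log2(TPM + 1) of 11 cell cycle genes was 4.60, 3.96, 2.51 and 1.66 in the controls and 2.65 to 2.96 in experimental libraries. Of the basal markers Krt15 was called, lower in the experimental libraries (log2 change −2.82, limma adjusted p = 0.0361). The summed level of 8 sebaceous gland markers was 213 to 526 TPM in the controls and 98.7 to 162 TPM in the experimental libraries, without overlap, and 2 of the 8 were called lower. The summed level of 12 hair follicle markers was 6699 to 51619 TPM in the controls and 1604 to 12205 TPM in the experimental libraries. Control library 4, lowest in basal and cell cycle markers, was highest in Sprr1a, Sprr4 and Sprr2h and lowest in Sprr1b and Sprr2a2, and the part of these markers in the results was not tested. Sprr2d, Sprr2h, Sprr2e and Sprr1b were called without any single library and without either pair of control libraries. Without experimental libraries 2 and 4 only 3 of the 10 genes were called, Sprr2d, Sprr2e and Sprr2h. Sprr1b then had a log2 change of 3.33 (limma adjusted p = 0.0677) and Sprr2b one of 0.97 (limma adjusted p = 0.163). In that fit 15 of 10765 genes were called, 0.139%.

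**Figure D5:**
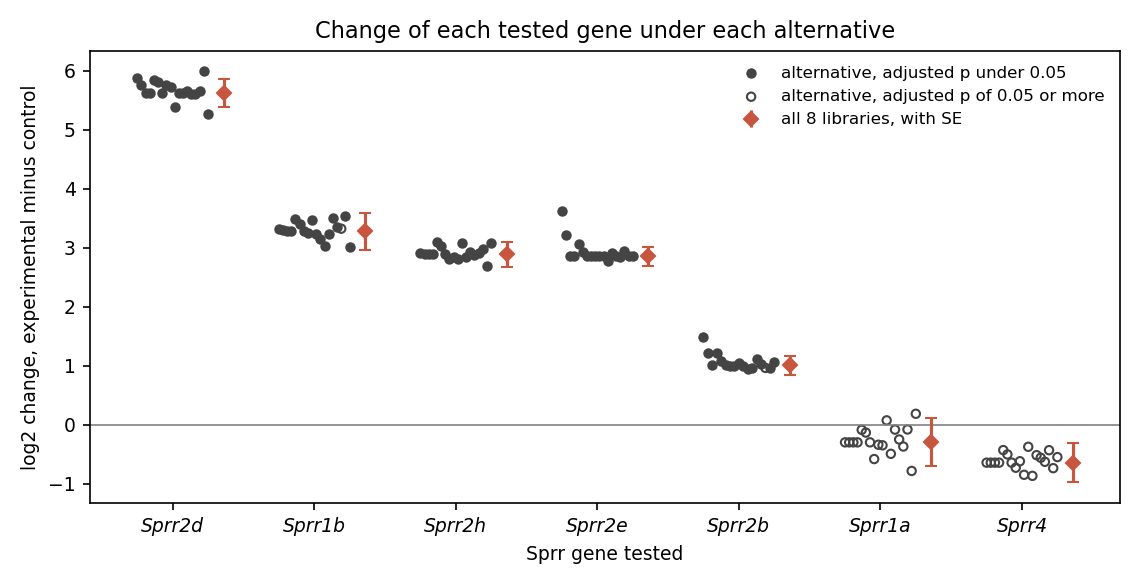
Log2 change, experimental minus control, of the 7 Sprr genes tested; red diamonds with SE bars are the fit on all 8 libraries, and grey points are the alternatives, filled where the adjusted p is under 0.05. Sprr2d, Sprr2h and Sprr2e stay above 2.69 and pass throughout, and Sprr1a crosses 0 and never passes.

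No splicing value of the family was given. The authors' deposited junction table listed 236 genes with 0 of the 10 Sprr genes. The authors' deposited fold change table listed 748 genes, again with none of the 10. All 748 had a log2 fold change below 0 and an authors' adjusted p under 0.05. Genes that rose were not listed there, so the absence of the Sprr genes that rose carries no information.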

How the data were processed

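Per the labels' protocols, the kits were RNeasy for epidermal RNA and NEBNext Ultra for libraries. STAR, Salmon 0.14.0, SAMtools 1.9, DESeq, GRCm38 and mm10 are named, without roles, in the submitters' processing notes. The expression table deposited by the authors holds log2 TPM, with 1 TPM or less listed at 0. Its values are named as not batch corrected, and the fit below held no batch term. The scale was checked against the mean normalized count signal in the authors' deposited fold change table, whose log2 fold changes and adjusted p-values are their own. The deposited junction table gives a PSI fraction per group, per the file headers; libraries of a group were combined.

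Columns carry a group but no replicate number of the labels, so library numbers 1 to 4 are names in table order. Values were returned to TPM, set to at least 1 and analysed as log2(TPM + 1), which understates changes of low genes. Genes with a mean of at least 1 TPM (10682) were fitted with limma 3.58.1 in R 4.3.3 on group alone (eBayes with trend, Benjamini-Hochberg, adjusted p under 0.05); the fit was tested on simulated data. A gene that failed the filter got an exact permutation test. Members, lists and alternatives were chosen with earlier results of these data known, so no list is independent evidence. Sprr genes were all named, as were up to 4 called genes of largest change per list (or 2 of lowest p), the 3 nearest profiles among genes of at least 5 TPM, and neighbours. Tgm1, Klf4, Pou2f3, Junb, Fosl1, Elf3, Ehf, Elf5, Krt17, S100a8, S100a9, Krt6a, Slpi and the cytokines at 0 were added after their values were seen. Gene models are GENCODE M21 (GRCm38), and 31-base words and coding identity were computed from its transcripts with Biopython 1.88, pandas 2.3.3, numpy 2.4.6 and scipy 1.17.1 in Python 3.11.15; figures used matplotlib 3.10.9.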

Additional observations from a re-analysis of the deposited data

Results flagged for a closer look

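The 4 libraries of a group were checked for each Sprr gene above 1 TPM in all of them, 17 sets in all, and 2 sets held a library apart from the other 3: its gap to the nearest library, as a share of the range, exceeded Dixon's 95% limit for 4 values. By chance about 1 in 20 of the sets checked would be flagged. Sprr2d in experimental library 2 was at 268 TPM, below 293 to 297 TPM in the other 3. Sprr2h in control library 4 was at 74.7 TPM, above 41.0 to 44.4 TPM in the other 3. Both genes were called without the library in question.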

How the results depend on the processing

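The number of Sprr members called was 5 in all but 3 of 20 alternatives: 4 with a mean of at least 5 TPM, where Sprr2b was not tested, 4 at an adjusted p under 0.01, and 3 without experimental libraries 2 and 4. Leaving out each library in turn gave 5 each time. Pseudocounts of 0.1 and 0.5 TPM, no filter, no variance trend, median centring and quantile normalization also gave 5. Sprr1a, not called in any fit, had log2 changes of −0.58 to 0.078 when each library was left out in turn, 0.078 without control replicate 4, and 0.19 without control libraries 3 and 4. Sprr4 stayed between −0.86 and −0.37 and uncalled. Sprr2a2 passed without control libraries 1 and 2 (log2 change 2.42, limma adjusted p = 0.0172) and had a log2 change of 0.45 without control libraries 3 and 4 (limma adjusted p = 0.269). Sprr2a3 also passed after quantile normalization (limma adjusted p = 0.0174). Centring moved the median gene from −0.18 to 0.03 and the calls over all genes from 98 higher and 165 lower to 283 and 102; quantile normalization gave 269 and 117. Called genes over the alternatives numbered 1 to 4 for envelope partners, 2 to 18 for Lce genes, 0 to 5 for regulators, 0 to 7 for NRF2 targets, 0 to 6 for alarm signals and 0 to 4 for stress genes, while calls over all genes ran from 0.139% to 24.2%; the cause was not tested. No paired analysis was possible because the table's columns carry no replicate number that matches the labels. Read depth was unknown, and values at or under 1 TPM could not be ordered.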
